A study of Homo sapiens with 9 samples.

Results

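Interferon-stimulated genes are described here in HCT116 cells, a human colon carcinoma line, after depletion of RNF40 or of transglutaminase 2. The 53 genes are a list of symbols, with no rule on their values, drawn up with earlier results of these data known. All 53 were found among the 63677 genes of the deposited table. Each was taken on its primary chromosome. The 9 libraries of polyadenylated RNA form 3 groups of 3 replicates, all in wild-type HCT116 cells taken 48 h after small interfering RNA (siRNA) was delivered by lipid transfection. The groups are siControl, siRNF40 (directed against RNF40, part of a heterodimeric enzyme for histone H2B monoubiquitination) and siTG2 (directed against TG2, the protein made from TGM2, which the series links to serotonin marks on histone H3). The labels name no interferon treatment in any group, and the siControl cells were transfected as well. The sequences and number of the siRNAs behind each group were not analysed here.

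Interferons are secreted proteins that cells make on sensing viral nucleic acid. Type I interferons bind the receptor chains IFNAR1 and IFNAR2, the kinases JAK1 and TYK2 phosphorylate STAT proteins, and STAT2 and IRF9 take part in a complex that binds the interferon-stimulated response element (ISRE) in the promoters of target genes. The targets include the sensors of viral RNA themselves, enzymes that degrade or edit RNA, the ubiquitin-like protein ISG15 and its conjugation enzymes, and proteins that block viral entry, translation or release. Many of them are also transcribed at a basal level in cells that were given no interferon.

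Of the 53 genes, 47 had a mean of at least 10 normalized counts over the 9 libraries and were tested. In siRNF40 against siControl, 30 of the 47 were lower and 2 were higher. Among all 17663 genes tested, 23.6% were called lower and 21.7% higher in that comparison. In siTG2 against siControl, 6 of the 47 were higher and 5 lower, beside 12.8% of all genes called higher and 18.5% called lower. IFIT1, which binds viral RNA lacking host cap methylation, fell to 0.253 of its siControl level in siRNF40 and rose 1.49-fold in siTG2. SAMD9, an antiviral cytoplasmic protein, fell to 0.366 and OAS3, which makes the activator of RNase L, to 0.406 in siRNF40. IFI6, a small membrane protein, rose 1.99-fold in siTG2 and fell to 0.581 in siRNF40.

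A gene is called here where limma's Benjamini-Hochberg adjusted p, taken over all 17663 genes, is under 0.05. Values are read counts divided by a size factor of the library (normalized counts). Where 3 values are given for a group they are replicates 1, 2 and 3 in that order. A log2 fold change is a difference of means of log2(normalized count + 1), and ± after it is limma's standard error. For low genes this form can give a smaller or a larger change than another method. In siRNF40 CMPK2 was at -3.00 here and -2.76 in the authors' deposited DESeq2 comparison, and SAMD9L at -2.38 and -3.29. The labels do not say whether replicates were separate cultures, so p-values measure the spread between these libraries only.

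The ISRE core, GAAANNGAAA on either strand, was searched in the RefSeq promoter windows of build GRCh38.p14, which run from 250 bases before to 50 bases after a transcription start. Windows were matched for 42 of the 53 genes. Only the first listed window of each gene symbol was kept, so a core near any other start of a gene would be missed. The core was present in 26 of the 42 (61.9%), and in 996 of all 27305 windows kept (3.65%). The stretches below were chosen to show the same core in genes with each outcome, with the core (or its reverse complement TTTCNNTTTC) in capitals, written 5′ to 3′ on the gene's strand.
IFIT1: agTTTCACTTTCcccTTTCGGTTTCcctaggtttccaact
IFIT3: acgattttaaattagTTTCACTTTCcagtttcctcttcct
OAS3: cggagagccgggcggGAAAACGAAAcc
HERC5: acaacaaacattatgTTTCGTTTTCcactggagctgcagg
SAMD9: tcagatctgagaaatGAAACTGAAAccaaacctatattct
IFI6: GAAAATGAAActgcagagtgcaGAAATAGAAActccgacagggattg
BST2: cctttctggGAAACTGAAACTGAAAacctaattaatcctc
TRIM14: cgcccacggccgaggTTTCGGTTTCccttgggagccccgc
LGALS3BP: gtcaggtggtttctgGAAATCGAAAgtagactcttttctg
ISG15: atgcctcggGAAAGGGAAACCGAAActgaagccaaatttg
IFITM3: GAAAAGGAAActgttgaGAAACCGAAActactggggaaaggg

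The first 5 belong to genes called lower in siRNF40. They lie in GRCh38.p14 at chr10:89392505-89392544 (IFIT1, plus strand), chr10:89327860-89327899 (IFIT3, plus), chr12:112938447-112938473 (OAS3, plus), chr4:88457030-88457069 (HERC5, plus) and chr7:93118091-93118130 (SAMD9, minus). Like IFIT1, IFI6 (chr1:27672261-27672307, minus) was called in both knockdowns in opposite directions, and BST2 (chr19:17405730-17405769, minus) was called higher in siTG2 only. TRIM14 (chr9:98119224-98119263, minus) was called higher in siRNF40 and LGALS3BP (chr17:78979957-78979996, minus) lower in siTG2. ISG15 (chr1:1013375-1013414, plus) and IFITM3 (chr11:320871-320912, minus) were called in neither knockdown. In BST2 and ISG15 overlapping matches run into one block of capitals.

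Genes with and without the core were found in each outcome. In siRNF40 against siControl, the 25 tested genes with a core held 14 called lower and 1 called higher, with a median log2 fold change of -0.62. The 14 tested genes whose window lacked it held 11 called lower and 1 higher, with a median of -0.66. Counted the other way, the core was in the window of 14 of the 25 genes called lower (56%) and of 10 of the 12 not called (83.3%). In siTG2 against siControl, 3 of 25 genes with a core were higher and 2 lower (median 0.015), and 3 of 14 without it were higher and 3 lower (median 0.25). The shorter element TTCNNNGAA, a form bound by STAT dimers, was in 10 of 42 windows (23.8%) and in 7.88% of all windows, and 6 of the 25 genes called lower in siRNF40 held it (24%). A match of letters is a description of these windows and not a binding site.

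**Figure D1:**
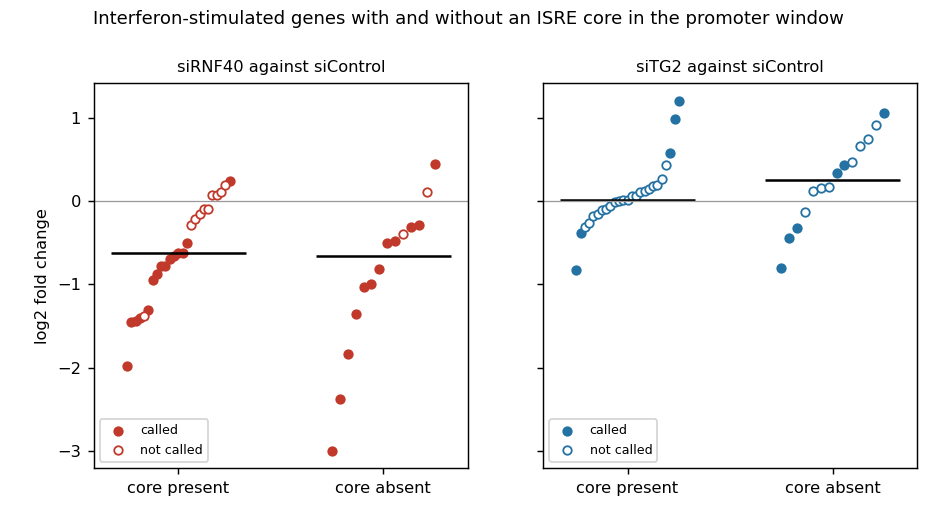
Log2 fold change (vertical axis) of the tested interferon-stimulated genes with a matched promoter window, split by presence or absence of the ISRE core, in siRNF40 (left) and siTG2 (right) against siControl. Each point is a gene, filled where called, and the black line is the median of the column. In siRNF40 the medians with and without a core are -0.62 and -0.66.

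The checks on the libraries were as follows. RNF40 was at 18.7% of its siControl mean in siRNF40, and TGM2 at 18.5% in siTG2, each with a two-sided exact permutation p of 0.1, the smallest that 3 against 3 libraries allow. RNF40 was also lower in siTG2 (log2 fold change -0.27 ± 0.085, adjusted p = 0.019). Reads assigned to genes numbered 29161285 to 35743918 per library. The siTG2 libraries had 27123 to 27602 genes with at least 1 read and the other libraries 25162 to 25548, and the part of this in the siTG2 results was not tested. All 6 epithelial markers were tested, and their summed level was 93971 to 102975 (siControl), 139083 to 164372 (siRNF40) and 81057 to 93059 (siTG2). Of 10 leukocyte markers 1 was at or above the minimum, CD3E was at 0 in every library, and the sums were 28.7 to 53.7, 45.9 to 67.2 and 49.8 to 87.6. Of 9 fibroblast and endothelial markers 8 were found and 3 tested, DCN and LUM were at 0, and the sums, mostly COL1A1, were 836 to 1044, 1392 to 1741 and 1058 to 1207. The part of the epithelial and COL1A1 shifts in the siRNF40 results was not tested.

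Levels of the genes differed widely. Per kilobase of exon (GENCODE 29 exon union), the siControl level was highest for ISG15, at 3283 ± 331 normalized counts per kilobase (SD, n = 3), followed by IFITM3 at 2844 ± 267 and LGALS3BP at 2504 ± 157. The order of these neighbours was not tested. TRIM25 (2228 ± 4.86) and ADAR (1817 ± 42) came next, then IFI6 at 635 ± 123 and IFITM2 at 556 ± 22.8. The remaining genes were lower, from EIF2AK2 at 475 ± 19.1 down to MX2, which had no read in siControl. An exon union that includes long rare transcripts lowers a gene's value per kilobase. Summed over the 53 genes, the siControl libraries held 86207 to 88532 normalized counts, the siRNF40 libraries 65405 to 67303 and the siTG2 libraries 69029 to 75849. TRIM25, ADAR and LGALS3BP made up 54.0% to 55.1% of this sum in siControl and 42.2% to 44.5% in siTG2. Without those 3 genes, picked because they are the most abundant, the sum was 38692 to 40683 (siControl), 28866 to 30337 (siRNF40) and 39812 to 43281 (siTG2). The siRNF40 libraries were thus the lowest on both sums, whereas the siTG2 libraries were below siControl only with the 3 abundant genes. All 3 were called lower in siTG2, so leaving them out raises siTG2 relative to siControl by construction. TRIM25 and ADAR were called lower in siRNF40 too. In bulk RNA, fewer cells with a transcript and less of it per cell cannot be told apart.

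**Figure D2:**
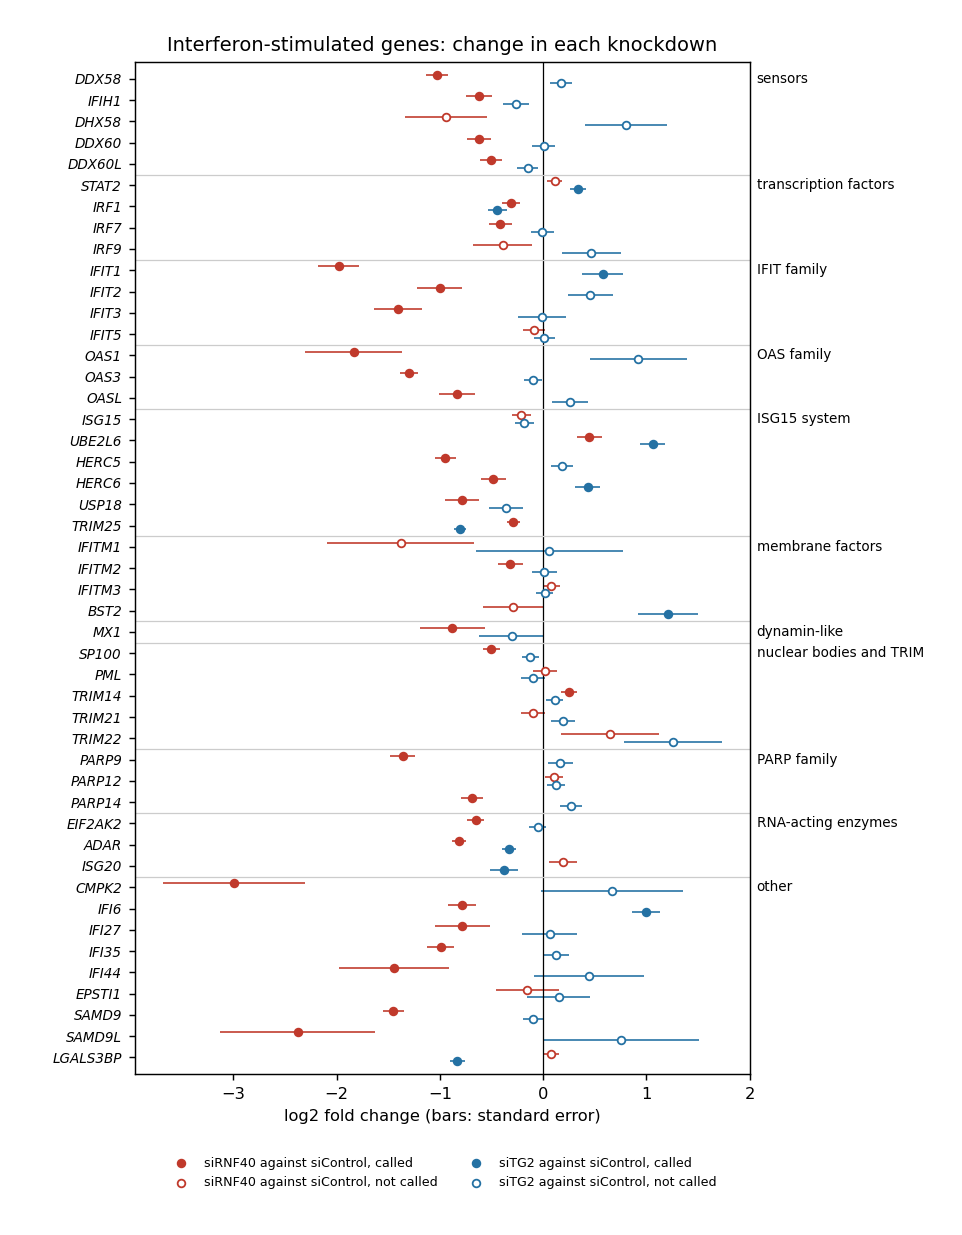
Log2 fold change with its standard error (horizontal axis) of the 47 tested interferon-stimulated genes, grouped by role, in siRNF40 (red) and siTG2 (blue) against siControl. Filled points are called. In siRNF40 most filled points lie left of 0, down to -3.00 for CMPK2, while in siTG2 the filled points lie on both sides, from -0.83 for LGALS3BP to 1.21 for BST2.

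The cytoplasmic sensors of viral RNA were lower in siRNF40 in 4 of 5 cases and were not called in siTG2 in any. DDX58 encodes RIG-I, the sensor of RNA with a free triphosphate end (hg19, chr9:32455300-32526322, minus strand). DDX58 was at 1172, 1108 and 1087 normalized counts in siControl, at 598, 614 and 451 in siRNF40 and at 1275, 1234 and 1276 in siTG2. All siRNF40 libraries lay far below the other 6, and the siTG2 libraries lay slightly above siControl. The log2 fold change was -1.03 ± 0.11 in siRNF40 (adjusted p = 2.6e-07) and 0.17 ± 0.11 in siTG2 (adjusted p = 0.25). IFIH1 encodes MDA5, the sensor of long double-stranded RNA. Its values were 642, 741 and 691 in siControl, 417, 488 and 441 in siRNF40 and 480.5, 597 and 664 in siTG2. The siRNF40 libraries lay below siControl and overlapped the lowest siTG2 library (-0.62 ± 0.12, adjusted p = 0.00039).

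DDX60 and DDX60L are paralogous helicases of the same group. DDX60 was at 631, 625 and 603 in siControl, at 370.2, 422 and 417 in siRNF40 and at 632, 546 and 695 in siTG2. For DDX60 the siRNF40 libraries lay below all others (-0.62 ± 0.11, adjusted p = 0.00017) and the siTG2 difference was 0.00 ± 0.11. DDX60L stood at 2807, 2493 and 2809.8 in siControl, 2089, 2081 and 1579 in siRNF40 and 2713, 2132 and 2488 in siTG2. Its siRNF40 values were the lowest, with the second siTG2 library close to them (-0.51 ± 0.10, adjusted p = 0.00059). DHX58 encodes LGP2, which lacks the signalling domain of the other sensors, and had 11.2 to 72.2 counts in the 9 libraries. Its siRNF40 and siControl libraries overlapped (-0.94 ± 0.40, adjusted p = 0.061), and it was called lower under 4 of 17 alternatives, among them without siControl replicate 3 (adjusted p = 0.045) or siRNF40 replicate 2 (0.029).

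Of the 4 transcription factors on the list, IRF1 and IRF7 were lower in siRNF40, STAT2 was higher in siTG2 and IRF1 was lower in siTG2. STAT2, a subunit of the complex that binds the ISRE, was at 1694, 1689 and 1559.8 in siControl, 1867, 1724 and 1746 in siRNF40 and 2001, 2194 and 2054 in siTG2. The siTG2 libraries were the highest of the 9 (0.34 ± 0.075, adjusted p = 0.0018), while the siRNF40 difference of 0.11 ± 0.075 was not called (adjusted p = 0.24). IRF1, a factor that can act without STATs, was at 954, 1089 and 1041 in siControl, 863, 829.6 and 788 in siRNF40 and 731, 757 and 777 in siTG2. Both knockdowns lay wholly below siControl, by -0.31 ± 0.09 in siRNF40 (adjusted p = 0.0082) and -0.44 ± 0.09 in siTG2 (adjusted p = 0.00092). The difference between the knockdowns for IRF1, 0.13 ± 0.09, was not called (adjusted p = 0.24). IRF7, the factor that amplifies interferon production, was at 732, 850.3 and 693 in siControl, 525, 529 and 652 in siRNF40 and 714, 764 and 778 in siTG2. It was lower in siRNF40 (-0.42 ± 0.11, adjusted p = 0.0049) with no overlap, and at -0.01 ± 0.11 in siTG2. IRF9, the DNA-binding subunit of the ISRE complex, had only 35.1 to 84.5 counts, with log2 fold changes of -0.39 ± 0.28 and 0.47 ± 0.28, neither called.

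The IFIT genes, which encode RNA-binding proteins that block translation of viral RNA, form a cluster on chromosome 10, and 3 of the 4 were lower in siRNF40. IFIT1 (hg19, chr10:91152303-91163745, plus strand) was at 310.3, 365 and 339 in siControl, 76.5, 122 and 65.1 in siRNF40 and 479.5, 438 and 607 in siTG2. The 3 groups did not overlap at all, with siRNF40 lowest and siTG2 highest. The log2 fold change was -1.98 ± 0.20 in siRNF40 (adjusted p = 1.7e-07) and 0.58 ± 0.20 in siTG2 (adjusted p = 0.033). The siTG2 call was lost under 6 of 18 alternatives, with log2 fold changes of 0.44 to 0.72 over all of them. It was lost when any single siControl library was left out (adjusted p = 0.114, 0.0505 and 0.0746 without replicates 1, 2 and 3), without siTG2 replicate 1 (0.058) or 3 (0.17), and with no filter on low values (0.0503).

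IFIT2 stood at 277, 153 and 179.7 in siControl, 113, 112 and 73.6 in siRNF40 and 301, 257 and 256 in siTG2. All siRNF40 libraries lay below the rest (-1.0 ± 0.22, adjusted p = 0.001). The siTG2 difference of IFIT2, 0.46 ± 0.22, was not called (adjusted p = 0.13). It was called higher with equal library totals (0.60, adjusted p = 0.043) and without siControl replicate 1 (0.70, adjusted p = 0.027). IFIT3, a partner that stabilizes IFIT1 on RNA, stood at 136, 135 and 147 in siControl, 54.1, 38.8 and 66.2 in siRNF40 and 155, 122 and 139 in siTG2. Its siRNF40 libraries were again wholly below the others, and siTG2 spanned the siControl range (-1.41 ± 0.23, adjusted p = 5.7e-05, against -0.01 ± 0.23). IFIT5, the fourth of the family, had a core in its window too but ranged from 946 to 1280.4 counts over the 9 libraries, and its differences of -0.09 ± 0.10 and 0.01 ± 0.10 were not called. IFIT1, IFIT2 and IFIT3 lie within the hg19 span of LIPA, a lysosomal lipase gene on the opposite strand with a mean of 1549 counts, and whether counting used strand is not stated. LIPA itself was at a log2 fold change of -0.82 in siRNF40 (adjusted p = 1.6e-07) and 0.42 in siTG2 (adjusted p = 0.00064). The part of LIPA reads in the IFIT values was not tested.

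The OAS enzymes make 2′-5′ linked oligoadenylate, which switches on RNase L, and all 3 tested genes of the family were lower in siRNF40 and not called in siTG2. OAS3 (hg19, chr12:113376157-113411054, plus strand) was the most abundant, at 2093, 2036 and 1989 in siControl, 865, 828 and 788 in siRNF40 and 1720.3, 1860.1 and 2154 in siTG2. The siRNF40 libraries clustered tightly and far below the other 6 (-1.30 ± 0.087, adjusted p = 8e-10), and siTG2 overlapped siControl (-0.10 ± 0.087, adjusted p = 0.42). OASL, which lacks the enzyme activity and boosts RIG-I signalling, was at 245, 223 and 264 in siControl, 129.5, 113 and 173 in siRNF40 and 269, 295 and 313 in siTG2. For OASL siRNF40 was lowest without overlap (-0.83 ± 0.17, adjusted p = 0.00057) and siTG2 stood just above siControl (0.26 ± 0.17, adjusted p = 0.28). OAS1 was low, between 4.62 and 68.6 counts, and its siRNF40 mean was under the test's minimum of 10. It had a log2 fold change of -1.84 ± 0.47 in siRNF40 (adjusted p = 0.0034), which was -1.23 with a pseudocount of 10. OAS2 had 0 to 12.1 counts and was not tested.

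ISG15 is a ubiquitin-like protein that is linked to other proteins by UBA7 (activation), UBE2L6 (transfer) and HERC5 (ligation), and USP18 removes it. The members of this system did not move together. ISG15 itself, the most abundant gene per kilobase, had 2865 to 3445 counts among siControl libraries, 2480.2 to 2844 with siRNF40 and 2387 to 3070.0 with siTG2. The siRNF40 range lay just below that of siControl, and the difference was not called (-0.21 ± 0.092, adjusted p = 0.066). It was called lower under 6 of 18 alternatives, among them without siRNF40 replicate 3 (adjusted p = 0.032), siTG2 replicate 1 (0.042) or siTG2 replicate 2 (0.043). UBE2L6 was at 405, 379 and 326 in siControl, 562, 485 and 465 in siRNF40 and 692, 784 and 839 in siTG2. UBE2L6 was the one gene called higher in both knockdowns, by 0.45 ± 0.12 in siRNF40 (adjusted p = 0.0055) and 1.06 ± 0.12 in siTG2 (adjusted p = 2.1e-06). Its promoter window was matched and held no ISRE core. The siTG2 libraries lay wholly above siRNF40 as well (siRNF40 against siTG2, -0.61 ± 0.12, adjusted p = 0.00029).

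HERC5 was at 591, 599 and 588 in siControl, 295, 326 and 301 in siRNF40 and 681, 705 and 637 in siTG2. The siControl and siRNF40 libraries were tightly grouped and well apart (-0.95 ± 0.11, adjusted p = 6.5e-07), with siTG2 just above siControl (0.19 ± 0.11, adjusted p = 0.20). HERC6, its neighbour and paralog on chromosome 4, was at 435, 526 and 575 in siControl, 380.4, 345 and 368 in siRNF40 and 744, 678 and 640.2 in siTG2. HERC6 was lower in siRNF40 (-0.48 ± 0.12, adjusted p = 0.003) and higher in siTG2 (0.43 ± 0.12, adjusted p = 0.01), with no overlap between groups. Without siControl replicate 1 or siTG2 replicate 1 the siTG2 call on HERC6 was lost (adjusted p = 0.076 and 0.054). USP18 stood at 253, 244 and 252 in siControl, 143, 166 and 128 in siRNF40 and 222, 178 and 187 in siTG2. Both knockdowns were below siControl, called in siRNF40 (-0.78 ± 0.16, adjusted p = 0.00069) and not in siTG2 (-0.36 ± 0.16, adjusted p = 0.11).

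TRIM25 is the ubiquitin ligase that acts on RIG-I and had the highest count of the 53 genes. It was at 21173, 21206 and 21115 in siControl, 17207, 17919.9 and 16834 in siRNF40 and 12357, 11132 and 12927 in siTG2. The groups were fully separate, and here siTG2 was the lowest. The log2 fold change was -0.29 ± 0.061 in siRNF40 (adjusted p = 0.00073) and -0.80 ± 0.061 in siTG2 (adjusted p = 1.1e-08). UBA7 had 0.925 to 21.8 counts and was not tested.

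Among the membrane proteins that hold back viral entry or release, 1 of 4 was lower in siRNF40 and 1 higher in siTG2. IFITM2 stood at 862, 891 and 821 in siControl, 806, 612 and 662 in siRNF40 and 749, 844 and 1024 in siTG2. Its siRNF40 libraries were below siControl by a small margin (-0.32 ± 0.12, adjusted p = 0.038). The call was lost under 9 of the 18 alternatives, among them leaving out siControl replicate 1, 2 or 3 (adjusted p = 0.09, 0.11 and 0.055) or siRNF40 replicate 2 or 3 (0.16 and 0.08). Another of them was the authors' deposited DESeq2 comparison (adjusted p = 0.053). IFITM3, the family member that blocks influenza entry, ranged from 3443 to 4279.9 counts over the 9 libraries, with differences of 0.08 ± 0.083 and 0.02 ± 0.083, neither called. IFITM1 had 3.06 to 35.1 counts and overlaps IFITM2 on the same strand in the hg19 coordinates, and its siRNF40 difference of -1.38 ± 0.71 was not called (adjusted p = 0.12). Without siRNF40 replicate 3, which had 31 counts beside 3.06 and 3.7, it was -2.34 (adjusted p = 0.0065). The IFITM genes are close paralogs, so the split of reads among them is uncertain. BST2 (tetherin), which holds budding virus at the cell surface, was at 53, 52.2 and 68.2 in siControl, 57.1, 31.4 and 56.6 in siRNF40 and 145, 102 and 162 in siTG2. The siTG2 libraries stood clear above the other 6 (1.21 ± 0.29, adjusted p = 0.0033), and siRNF40 overlapped siControl (-0.29 ± 0.29, adjusted p = 0.44).

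MX1, a dynamin-like GTPase that blocks influenza virus, was low, at 56.3 to 72.3 counts with siControl, 25.5 to 53.4 with siRNF40 and 49.8 to 54.6 with siTG2. It was called lower in siRNF40 (-0.88 ± 0.31, adjusted p = 0.029). That call was lost under 6 of 18 alternatives, with adjusted p of 0.074, 0.091, 0.12 and 0.074 when siControl replicate 2 or 3 or siRNF40 replicate 1 or 2 was left out. MX1 was not called in the authors' deposited DESeq2 comparison either (adjusted p = 0.055). MX2 had at most 3.77 counts and was not tested.

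Of the 5 genes of PML nuclear bodies and TRIM proteins, 1 was lower and 1 higher in siRNF40, and none was called in siTG2. SP100, a body component that restricts DNA viruses, was at 2393, 2505 and 2219.9 in siControl, 1671, 1830.4 and 1535 in siRNF40 and 2068, 2149 and 2317 in siTG2. The siRNF40 libraries were the lowest 3 (-0.50 ± 0.081, adjusted p = 5.2e-05), and siTG2 overlapped siControl. PML, the scaffold of the same bodies, ranged from 621 to 819 counts over all libraries and was not called (0.02 ± 0.11 and -0.10 ± 0.11). TRIM14, an adaptor of the RIG-I pathway, was at 1062, 1194 and 1138 in siControl, 1295, 1359.6 and 1378 in siRNF40 and 1183, 1201 and 1277 in siTG2. It was the highest in siRNF40 (0.25 ± 0.081, adjusted p = 0.017), a call lost without siControl replicate 1 (adjusted p = 0.091). TRIM14 overlaps NANS on the opposite strand, whose own log2 fold change in siRNF40 was -0.46. TRIM21, the intracellular antibody receptor, was not called against siControl (-0.10 ± 0.11 and 0.19 ± 0.11). TRIM22 had 7.23 to 62.6 counts, and its siTG2 difference of 1.26 ± 0.47 missed the threshold (adjusted p = 0.0504). It was called with a pseudocount of 10 (0.90, adjusted p = 0.039) and without siControl replicate 2 (1.59, adjusted p = 0.03).

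PARP9 and PARP14 are neighbouring ADP-ribosyltransferase genes on chromosome 3, and both were lower in siRNF40. PARP9 (hg19, chr3:122246771-122283424, minus strand), which works with the ubiquitin ligase DTX3L, was at 769, 939.6 and 872 in siControl, 334, 378 and 292 in siRNF40 and 941, 865 and 1089 in siTG2. All siRNF40 libraries lay far below the others (-1.36 ± 0.12, adjusted p = 3.4e-08), and siTG2 overlapped siControl (0.16 ± 0.12, adjusted p = 0.33). DTX3L overlaps PARP9 on the opposite strand and had log2 fold changes of -0.98 in siRNF40 (adjusted p = 3.4e-07) and -0.54 in siTG2 (adjusted p = 0.00056), the latter called where PARP9 was not. PARP14 was at 2351, 2188 and 2314 in siControl, 1498, 1559 and 1215 in siRNF40 and 2946, 2307 and 3075 in siTG2. It was lowest in siRNF40 without overlap (-0.69 ± 0.10, adjusted p = 2.4e-05) and at 0.27 ± 0.10 in siTG2 (adjusted p = 0.056), with the second siTG2 library inside the siControl range. Without siTG2 replicate 2 the siTG2 value was 0.40 (adjusted p = 0.0046). PARP12 ranged from 1005 to 1207 counts over all libraries and was not called (0.11 ± 0.084 and 0.12 ± 0.084).

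Of the enzymes that act on RNA or translation, EIF2AK2 and ADAR were lower in siRNF40, and ADAR and ISG20 were lower in siTG2. EIF2AK2 encodes PKR, the kinase that stops translation on sensing double-stranded RNA. It was at 5058, 4925 and 5327 in siControl, 3442, 3467 and 2852 in siRNF40 and 5005, 4524 and 5236 in siTG2. The siRNF40 libraries were clearly separate (-0.65 ± 0.079, adjusted p = 1.8e-06), and siTG2 overlapped siControl (-0.05 ± 0.079, adjusted p = 0.65). ADAR edits adenosine to inosine in double-stranded RNA, and only its longer isoform is interferon-induced, which gene counts do not separate. ADAR was at 17422, 17325 and 18073 in siControl, 10463, 10412 and 9117 in siRNF40 and 14823, 12921 and 14433 in siTG2. The 3 groups did not overlap, with siTG2 in between (-0.82 ± 0.068, adjusted p = 1.3e-08, and -0.33 ± 0.068, adjusted p = 0.001). With quantile normalization the siTG2 difference of ADAR was -0.11 (adjusted p = 0.27). ISG20, an exonuclease of single-stranded RNA, was at 688, 636 and 486 in siControl, 703, 585 and 767 in siRNF40 and 449, 493 and 435 in siTG2. The siTG2 libraries were low but the second overlapped the third siControl library (-0.38 ± 0.13, adjusted p = 0.037), and the call was lost under 6 of 18 alternatives. The adjusted p for ISG20 was 0.19 without siControl replicate 1, 0.12 without siControl replicate 2, 0.086 without siTG2 replicate 1 and 0.12 without siTG2 replicate 3.

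The remaining 12 genes held 7 lower in siRNF40 and, in siTG2, 1 higher and 1 lower. IFI6 was at 446, 659 and 543 in siControl, 358, 293 and 297 in siRNF40 and 1003, 1037 and 1218 in siTG2. The groups were fully separate in the order siRNF40, siControl, siTG2 (-0.78 ± 0.14, adjusted p = 0.0001, and 0.99 ± 0.14, adjusted p = 1.7e-05). IFI35, an interferon-induced leucine zipper protein, was at 569, 496 and 484 in siControl, 292, 271 and 219 in siRNF40 and 539.8, 581 and 568 in siTG2. Only siRNF40 stood apart for IFI35 (-0.99 ± 0.13, adjusted p = 3.8e-06). SAMD9 (hg19, chr7:92728829-92747336, minus strand) was at 1241, 1225 and 1206 in siControl, 447, 462 and 434 in siRNF40 and 1068, 1044 and 1351 in siTG2. Its siRNF40 libraries were tightly grouped and far below the rest (-1.45 ± 0.10, adjusted p = 1.5e-09), and siTG2 overlapped siControl (-0.09 ± 0.10, adjusted p = 0.52). LGALS3BP, a secreted glycoprotein that binds galectins, was at 9279.7, 9319 and 8327 in siControl, 9168, 8673 and 10587 in siRNF40 and 4805, 5098 and 5208 in siTG2. It showed the reverse pattern, with siTG2 wholly below the other 6 libraries (-0.83 ± 0.074, adjusted p = 7.7e-08) and siRNF40 overlapping siControl (0.08 ± 0.074, adjusted p = 0.43).

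The low genes of this group gave wide errors. CMPK2, a mitochondrial nucleotide kinase, had 15.2 to 29.8 counts with siControl, 0 to 8.32 with siRNF40 and 24.5 to 47.5 with siTG2. Its fitted difference of -3.00 ± 0.69 in siRNF40 (adjusted p = 0.0014) was -1.37 with a pseudocount of 10. SAMD9L, the paralog of SAMD9 beside it on chromosome 7, had at most 13.3 counts in siControl and at most 1.07 in siRNF40, and reached the test's minimum only through siTG2 (9.68 to 38.6). Its siRNF40 call (-2.38 ± 0.75, adjusted p = 0.014) was lost with a pseudocount of 10 (-0.83, adjusted p = 0.071) and without siControl replicate 2 (adjusted p = 0.063). IFI27, a mitochondrial membrane protein, had 38.8 to 89.8 counts and was lower in siRNF40 (-0.78 ± 0.27, adjusted p = 0.022), a call lost without siControl replicate 1 (adjusted p = 0.092) and without siRNF40 replicate 2 (0.053). IFI44 had 5.55 to 49.8 counts, and its siRNF40 call (-1.45 ± 0.53, adjusted p = 0.034) was lost without siControl replicate 2 or 3 or siRNF40 replicate 2 or 3 (adjusted p = 0.16, 0.10, 0.14 and 0.088). EPSTI1 had 45.5 to 102 counts and was not called in either knockdown. RSAD2 (viperin) had 0 to 14.1 counts, IFI44L 0 to 1.76 and XAF1 0 to 13.3, and none of these was tested.

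**Figure D3:**
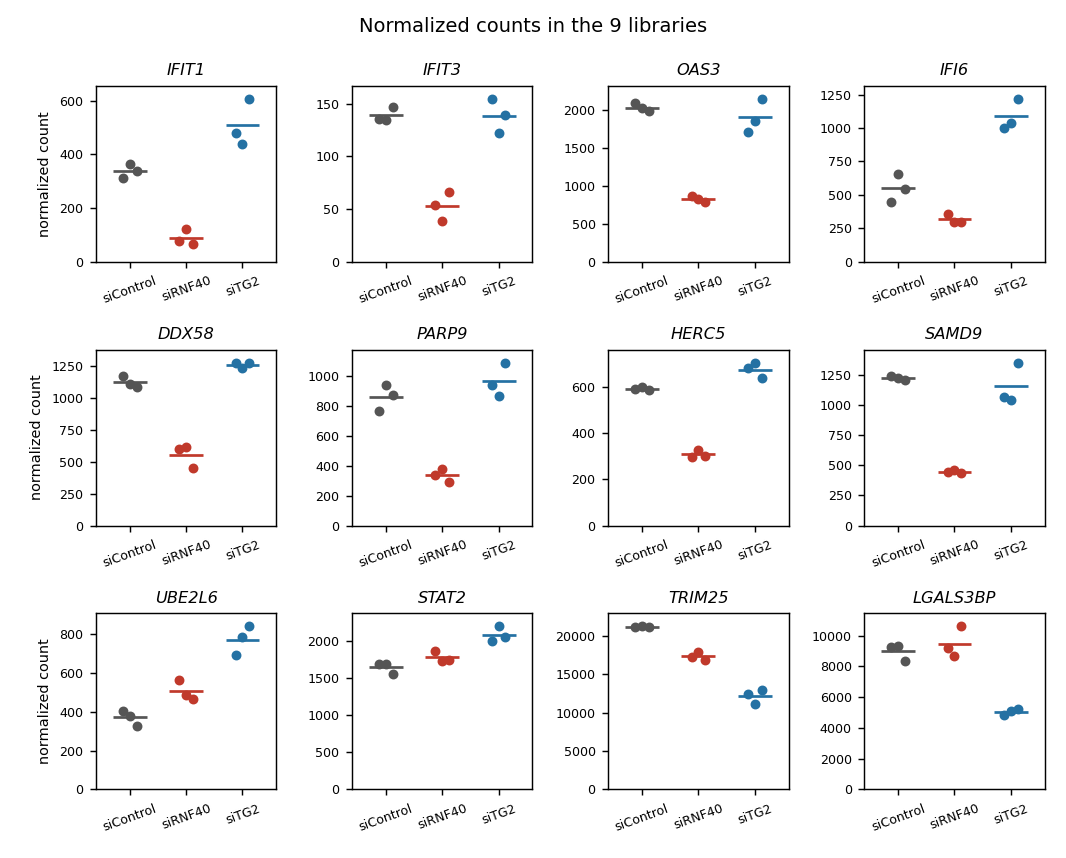
Normalized counts (vertical axes, each from 0) of 12 interferon-stimulated genes in the 3 libraries of each group, with the group mean as a line. The genes were picked to show each pattern, such as lower only in siRNF40 (OAS3 and SAMD9) and opposite in the knockdowns (IFIT1, IFI6). Others were higher in both (UBE2L6), lower in both (TRIM25) or lower only in siTG2 (LGALS3BP).

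Setting the calls of the 2 knockdowns side by side, 24 genes were called lower in siRNF40 and not called in siTG2, and 11 were called in neither. IFIT1, HERC6 and IFI6 were lower in siRNF40 and higher in siTG2, and IRF1, TRIM25 and ADAR were lower in both. STAT2 and BST2 were called higher in siTG2 alone, ISG20 and LGALS3BP lower in siTG2 alone, and TRIM14 higher in siRNF40 alone, with no call on TRIM14 in the direct comparison of the knockdowns (0.14 ± 0.081, adjusted p = 0.16). The comparisons share the siControl libraries, so these counts are descriptive. The shares of all 17663 genes with each of these patterns are not given here, so the counts show nothing particular to the list. The median log2 fold change of the 47 genes was -0.62 in siRNF40 and 0.11 in siTG2, beside medians over all tested genes of 0.016 and -0.0069. The siTG2 median was 0.065 without siControl replicate 1 and 0.014 with a minimum mean of 50. In siRNF40, 38 of the 47 values were below 0, and in siTG2 17 were.

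The siTG2 counts depended on the scaling. When the libraries were scaled to equal totals, the median of all genes in siTG2 against siControl moved up by 0.14, and 14 genes of the list were higher and 4 lower, in place of 6 and 5. Over all genes the share of calls that were higher moved from 40.9% to 67.2%. Relative to the median of all genes, the list's median in siTG2 was 0.12 under both scalings.

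The direct comparison of siRNF40 with siTG2 tests the difference between the knockdown effects. Its log2 fold changes hold no siControl value, but its spread comes from the fit to all 9 libraries, siControl included. With the 6 libraries of the comparison alone, the calls on USP18 and TRIM21 were lost (adjusted p = 0.065 and 0.051). In the main fit 33 of the 47 genes were lower in siRNF40 and 3 were higher, beside 26.6% of all genes called lower and 26.6% called higher. SAMD9L, counted among the 33, reached the minimum mean only through siTG2, the higher group here. Its call is therefore partly fixed by the filter and is set aside. The median of the 47 genes was -0.62. With equal library totals it was -0.79, the list counts were 34 and 3, and the share of all calls that were higher moved from 49.99% to 34.1%. Differences were largest for IFIT1 (-2.56 ± 0.20, adjusted p = 3.2e-09), IFI6 (-1.78 ± 0.14, adjusted p = 2.7e-09) and PARP9 (-1.52 ± 0.12, adjusted p = 4.3e-09), taking only genes called here whose mean was 100 or more. The smallest called differences were those of STAT2 (-0.23 ± 0.075, adjusted p = 0.015), TRIM21 (-0.29 ± 0.11, adjusted p = 0.037) and IFITM2 (-0.33 ± 0.12, adjusted p = 0.027). TRIM25 (0.52 ± 0.061), ISG20 (0.57 ± 0.13) and LGALS3BP (0.91 ± 0.074) were the 3 genes higher in siRNF40 than in siTG2. The STAT2 difference was lost without siTG2 replicate 2 (adjusted p = 0.066), and that of TRIM21 in 5 of the 9 fits that left out a single library. The IFITM2 difference was lost without siRNF40 replicate 2 (adjusted p = 0.12), siRNF40 replicate 3 (0.06) or siTG2 replicate 3 (0.19).

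The signalling pathway that switches these genes on was described from a separate list of 43 genes, of which 35 were tested. None of the 6 interferon genes on it (IFNB1, IFNL1, IFNL2, IFNL3, IFNK and IFNW1) reached the minimum. Interferon genes outside these 6 were not examined here. IFNB1, the type I interferon made by most cells, had at most 1.1 counts in any library, and the highest value of the 6 was 16.3, for IFNK in siRNF40 replicate 1. In siRNF40 against siControl 4 of 35 were higher and 11 lower, with a median of -0.10. In siTG2 against siControl 6 were higher and 6 lower, with a median of -0.07, and under equal library totals 10 and 3. As shares of the 35, these are 11.4% higher and 31.4% lower in siRNF40, beside 21.7% and 23.6% of all genes, and 17.1% each way in siTG2, beside 12.8% and 18.5%.

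Receptor chains were not called in siRNF40, while IFNAR1 (0.24 ± 0.069, adjusted p = 0.013), IFNAR2 (0.57 ± 0.17, adjusted p = 0.014) and IFNLR1 (0.37 ± 0.12, adjusted p = 0.02) were higher in siTG2. Each of these calls was lost without 1 or another library: IFNAR1 without siControl replicate 1 or 2 or siTG2 replicate 2 (adjusted p = 0.074, 0.052 and 0.057), IFNAR2 without siControl replicate 2 or siTG2 replicate 3 (0.097 and 0.07), and IFNLR1 without siControl replicate 1 or siTG2 replicate 2 or 3 (0.083, 0.06 and 0.091). Of the kinases, JAK1 was at 7344, 7282 and 7254 in siControl, 4828, 5038 and 4422 in siRNF40 and 6243, 5714 and 6581 in siTG2. The 3 groups of JAK1 did not overlap, and JAK1 was lower in siRNF40 (-0.62 ± 0.067, adjusted p = 5e-07) and, by less, in siTG2 (-0.24 ± 0.067, adjusted p = 0.01). TYK2 was lower in siTG2 (-0.29 ± 0.082, adjusted p = 0.011) and not called in siRNF40 (0.10 ± 0.082, adjusted p = 0.33). The siTG2 calls of both kinases were lost with quantile normalization (JAK1 -0.055 and TYK2 -0.17) and with equal library totals (-0.098 and -0.15), and without siTG2 replicate 2 for JAK1 (adjusted p = 0.056) and siTG2 replicate 1 for TYK2 (0.062). JAK2, the kinase of the type II interferon receptor, was lower in siRNF40 as well (-0.77 ± 0.13, adjusted p = 0.0001). IKBKE, which phosphorylates interferon regulatory factors, had 78.5 to 119.6 counts in siControl and 170.1 to 259.6 in siTG2 (1.18 ± 0.27, adjusted p = 0.0023).

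STAT3, which mainly carries interleukin signals, was lower in siRNF40 (-0.94 ± 0.06, adjusted p = 4e-10) and at 0.01 ± 0.06 in siTG2. TMEM173 encodes STING, the adaptor of the cytoplasmic DNA sensor. It stood at 489, 550.4 and 534 in siControl, 147, 159 and 141 in siRNF40 and 768, 909 and 735 in siTG2. Its groups did not overlap, with siRNF40 lowest and siTG2 highest (-1.81 ± 0.12, adjusted p = 1.1e-09, and 0.61 ± 0.12, adjusted p = 0.00088). TLR3, the endosomal sensor of double-stranded RNA, was lower in siRNF40 (-1.04 ± 0.20, adjusted p = 0.00023). Its adaptor TICAM1 went the other way, at 868 to 1070.1 counts with siControl, 1156 to 1407 with siRNF40 and 389 to 534 with siTG2 (0.33 ± 0.12, adjusted p = 0.034, and -1.12 ± 0.12, adjusted p = 1.1e-06). The siRNF40 call on TICAM1 was lost without siControl replicate 3 (adjusted p = 0.18) or siRNF40 replicate 3 (0.14). CYLD, a deubiquitinase that restrains RIG-I signalling, was lower in both, with the larger difference in siTG2 (-0.64 ± 0.10, adjusted p = 9.6e-05). PTPN11, which encodes a tyrosine phosphatase, was lower in siTG2 (-0.45 ± 0.072, adjusted p = 9.2e-05).

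**Figure D4:**
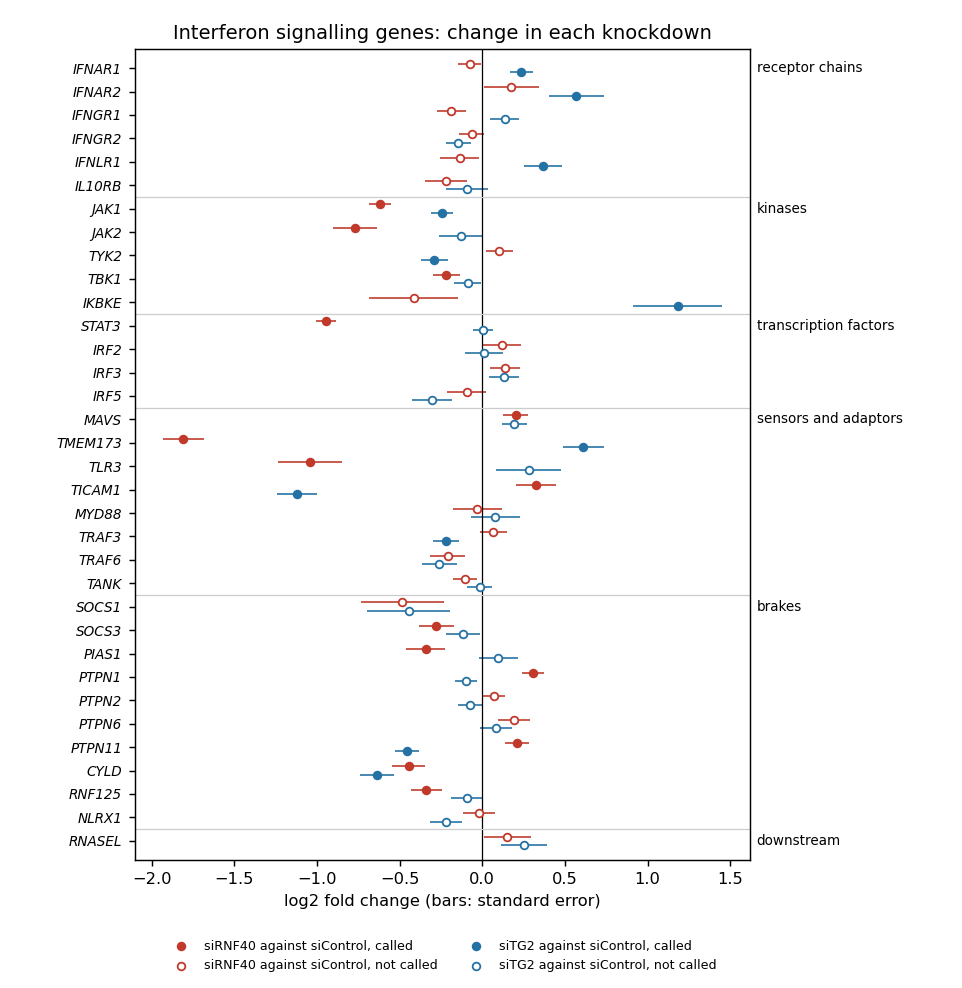
Log2 fold change with its standard error (horizontal axis) of tested interferon signalling genes, grouped by role, in siRNF40 (red) and siTG2 (blue) against siControl. Filled points are called. TMEM173 lies at -1.81 in siRNF40 and 0.61 in siTG2, and TICAM1 at 0.33 and -1.12.

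The word GTCTTCA was searched because an earlier report on these same data tied it to lower genes in siRNF40. Its values over all genes are therefore no independent result. Across all genes of these libraries, transcripts holding the word in the 3′ untranslated region had lower values in siRNF40. The median log2 fold change was -0.30 over 2111 coding genes with it against 0.025 over 11305 without it. The word was found there in 5 of the 47 tested interferon-stimulated genes (10.6%) and in 15.7% of the 13416 coding genes. The 5 were OASL, SP100, TRIM22, ADAR and SAMD9, with a median of -0.82. The 42 without the word had a median of -0.62. Searched anywhere in the transcript, the word was in 10 of the 47 (21.3%, beside 31.3% of coding genes), with medians of -0.83 for those 10 and -0.51 for the other 37. Over all coding genes the medians were -0.25 with the word and 0.071 without it. Of the 10, IRF1, OASL, HERC5, SP100, EIF2AK2, ADAR, IFI35 and SAMD9 were called lower in siRNF40, and DHX58 and TRIM22 were not called. Genes called lower without the word include IFIT1, IFIT3, OAS3, DDX58 and PARP9, these 5 being picked after their values were seen. In siTG2, the word GCGCCCT was anywhere in the transcript of 7 of the 47 (14.9%, beside 19.2% of coding genes). The medians in siTG2 were -0.099 with it and 0.16 without it among the 47, and -0.073 and -0.019 among all coding genes. In the 3′ untranslated region GCGCCCT was in 1 of the 47 (2.1%, beside 3.5% of coding genes). There the medians over all coding genes were -0.14 with it and -0.023 without it.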

How the data were processed

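Messenger RNA of 9 HCT116 libraries was sequenced. Per the submitters' processing notes, Trim Galore 0.4.1, STAR 2.7.0, HTSeq 0.12.4 and DESeq2 were used, and builds hg19 and hg38 are named. Gene coordinates in the table are hg19, and a strand setting is not given in the sources used here. The authors deposited a signal: gene counts scaled by each library's size factor. All values (100%) lay within 0.001 of whole reads after division by a library's step. Columns marked NC were taken as siControl, because their means equal those in the deposited comparisons. The authors also deposited log2 fold changes, standard errors, p-values and adjusted p-values of their DESeq2 comparisons, used here as an alternative only.

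limma 3.58.1 with a trend (R 4.3.3) was fitted to log2(value + 1) of all 9 libraries with 3 group means. The 17663 genes with a mean of at least 10 were tested, two-sided, with Benjamini-Hochberg adjustment, and checked on simulated data. edgeR 4.0.16 on recovered reads was an alternative. Members, lists and tests were chosen with earlier results of these data known. Values in every library are given for members called against siControl with a mean of at least 100 (29 genes). Up to 6 called signalling genes per comparison with a mean of at least 50 were named by size of change. For the direct comparison, the 3 largest and 3 smallest called differences were set side by side. IFNAR1, IFNLR1, JAK1 and TYK2 in siTG2, TICAM1 and CYLD in siRNF40, the signalling genes given by library, the most abundant genes and the 12 plotted genes were picked after values were seen. Promoters came from RefSeq (GRCh38.p14) and transcripts from GENCODE 29. The result on 1 signalling gene is not reported here, and it is left out of the plot.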

Additional observations from a re-analysis of the deposited data

How the results depend on the processing

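The members' and signalling genes' log2 fold changes, calls, counts of calls and medians were recomputed with a pseudocount of 10, no filter on low values, a minimum mean of 50, quantile normalization, equal library totals, the 6 libraries of a comparison alone, a replicate block, edgeR with TMM on whole reads, the authors' deposited DESeq2 comparison (for the comparisons with siControl) and without each library in turn. No gene that was called, in the main fit or in the alternative, changed sign between them. Values of genes not called did change sign in places, such as EPSTI1 in siRNF40 (-0.40 to 0.17 over the alternatives). Calls were kept under all alternatives that gave a value by 26 of 32 genes in siRNF40, 7 of 11 in siTG2 and 29 of 36 in the direct comparison. In siRNF40 the calls lost somewhere were those of IFI27, IFI44, IFITM2, MX1, SAMD9L and TRIM14, and in siTG2 those of ADAR, HERC6, IFIT1 and ISG20. Genes not called that gained a call somewhere numbered 3 in siRNF40 (DHX58, IFITM1 and ISG15), 10 in siTG2 (PARP14 under 8 alternatives, TRIM22 under 5) and 3 in the direct comparison (IFIT5, IFITM1 and MX1). Promoter, word, per-kilobase and summed values were computed under the main setting only. With equal library totals, members called higher in siTG2 numbered 14, their median log2 fold change in siTG2 was 0.25 and that in siRNF40 against siTG2 was -0.79, which was -0.84 with no filter on low values. There, by construction, more genes enter, including those at or near 0. Signalling genes called higher in siRNF40 numbered 1 with no filter and 2 with equal totals, and in siTG2 10 were higher and 3 lower with quantile normalization and with equal totals alike. For the quantile counts the cause was not tested. Without single libraries, members called lower in siRNF40 ranged from 26 to 31 and those called higher from 1 to 2 (1 without siControl replicate 1, where TRIM14 was lost). Members called in siTG2 ranged from 4 to 8 higher and from 4 to 6 lower, and signalling genes called higher in siRNF40 from 2 to 4. That last count was 2 without siControl replicate 1 or 2 or siRNF40 replicate 1 or 2. Same-numbered libraries did not deviate together (r of -0.075 to 0.081 over 9 pairs, against -0.079 to 0.092 over 18 differently numbered pairs). No shared effect of the replicate number was thus seen, which cannot show whether libraries were prepared in matched sets. With the replicate block, 31 members were lower and 2 higher in siRNF40, 5 lower and 6 higher in siTG2, and 32 lower and 3 higher in the direct comparison, and calls over all genes numbered 7735, 5164 and 9203 in place of 8000, 5533 and 9410. Depth limits the 6 genes under the minimum mean and OAS1, CMPK2 and SAMD9L, which had a group mean under 10.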
